A study of Mus musculus with 21 samples.

Results

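The transcripts described here encode 10 proteins that make, interconvert, move and break down serine and glycine, chosen by gene symbol from the 22058 genes of the deposited count table. They are Phgdh, Psat1 and Psph (serine synthesis), Shmt1 and Shmt2 (exchange of serine and glycine), Gldc, Amt and Gcsh (glycine cleavage), Srr (D-serine) and Sfxn1 (serine entry into mitochondria). All 10 symbols were found, and 9 of the 10 had enough counts to be among the 9192 genes tested. In eIF2B HOM brains 5 of the 9 were higher and none was lower: the 3 synthesis genes, Shmt2 and Sfxn1.

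The eIF2B HOM group held 9 mice (5 female and 4 male, 93 to 114 days old) homozygous for the R191H knock-in allele of Eif2b5, and the wild-type group held 12 mice (7 female and 5 male, 90 to 114 days old). Both were C57Bl6/J, and the study bred them as littermates from heterozygous parents, without naming litters in the labels. The epsilon subunit made from Eif2b5 is the catalytic one of eIF2B, which reloads the translation initiation factor eIF2 with GTP. Each library holds the 3' ends of polyadenylated RNA of 1 mouse, taken from its right hemisphere (anterior portion), so a level is a sum over all cell types there, and fewer cells of a type cannot be told apart from less RNA per cell.

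Serine is made from the glycolytic intermediate 3-phosphoglycerate by Phgdh, Psat1 and Psph in turn, and the SHMT enzymes then split it into glycine and a folate-bound carbon unit. The glycine cleavage system, a mitochondrial complex of P, T, H and L proteins, takes glycine apart and hands its carbon to folate as well. In the brain both routes are known mainly from astrocytes and other glia, which supply neurons with serine, and Phgdh, Psat1, Psph and Shmt2 are known targets of ATF4, the transcription factor induced by the integrated stress response (ISR).

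Totals per library were 727018 to 2918902 counts in the eIF2B HOM mice and 827862 to 3100141 counts in the wild-type mice. The labels name 2 batches. Batch 1 held 4 eIF2B HOM mice (105 to 114 days) and 8 wild-type mice (104 to 114 days), and batch 2 held 5 eIF2B HOM mice (93 to 104 days) and 4 wild-type mice (90 to 92 days), so age and batch went together, and inside batch 2 age and genotype cannot be told apart. Levels of Eif2b5 were 42.1 ± 6.74 CPM (counts scaled to a common library total) in the eIF2B HOM mice and 38.7 ± 5.60 CPM in the wild-type mice (SD, n = 9 and 12), and a 3' count does not read the altered codon, so it does not check the genotype. The olfactory bulb genes Th, Doc2g, Eomes, Cdhr1, Tbx21 and Shisa3 summed to over 50 CPM in 4 batch 1 libraries (1 eIF2B HOM and 3 wild-type), and leaving those out left the same number of the 10 genes called, 5 higher and 0 lower. Summed astrocyte markers ranged from 4450 to 6791 CPM (median 5713) in eIF2B HOM mice and from 4571 to 6648 CPM (median 5766) in wild-type mice, with 1 of 12 markers higher and 1 lower. Markers of neurons (8), oligodendrocytes (7) and astrocytes (12) passed the filter on counts, so genes that define brain tissue were present.

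RefSeq gives 11 promoter windows of 300 bases (250 before to 50 after a transcript start, GRCm38.p6) for the 10 genes. Those of the 3 synthesis genes and of Gldc, the cleavage gene with the largest change in size, are shown so that the start regions of both routes can be compared. Capitals mark CCAAT, or ATTGG where the box lies on the other strand.
Phgdh, chr3:98339920-98340219, minus strand: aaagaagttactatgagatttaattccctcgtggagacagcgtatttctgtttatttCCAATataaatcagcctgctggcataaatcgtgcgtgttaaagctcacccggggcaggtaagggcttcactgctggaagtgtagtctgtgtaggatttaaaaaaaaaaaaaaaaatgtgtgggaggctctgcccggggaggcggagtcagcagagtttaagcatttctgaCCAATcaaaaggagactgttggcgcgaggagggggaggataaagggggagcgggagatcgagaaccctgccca
Psat1, chr19:15925010-15925309, minus strand: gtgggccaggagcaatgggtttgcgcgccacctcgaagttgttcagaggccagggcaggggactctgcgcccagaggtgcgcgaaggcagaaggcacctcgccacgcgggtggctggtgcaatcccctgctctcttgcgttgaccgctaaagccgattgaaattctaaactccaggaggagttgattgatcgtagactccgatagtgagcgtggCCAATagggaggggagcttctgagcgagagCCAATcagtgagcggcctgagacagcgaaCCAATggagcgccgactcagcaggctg
Psph, chr5:129787204-129787503, minus strand: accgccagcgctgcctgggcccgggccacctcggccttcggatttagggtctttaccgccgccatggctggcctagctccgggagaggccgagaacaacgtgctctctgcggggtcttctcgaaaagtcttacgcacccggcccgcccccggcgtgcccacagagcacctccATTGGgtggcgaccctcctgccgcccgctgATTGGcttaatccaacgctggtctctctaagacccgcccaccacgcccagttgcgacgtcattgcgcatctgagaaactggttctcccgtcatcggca
Gldc, chr19:30175392-30175691, minus strand: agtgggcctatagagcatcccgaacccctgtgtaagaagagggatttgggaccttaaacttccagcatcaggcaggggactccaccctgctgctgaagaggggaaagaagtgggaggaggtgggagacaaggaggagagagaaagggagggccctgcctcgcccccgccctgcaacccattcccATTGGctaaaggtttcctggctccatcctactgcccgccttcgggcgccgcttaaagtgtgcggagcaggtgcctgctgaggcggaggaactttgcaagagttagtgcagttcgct

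The element TGATGNAA, the C/EBP-ATF response element that ATF4 binds with a C/EBP partner, was searched on both strands and was present in 0 of the 11 windows, against 3.97% of 32851 windows of all genes. The search for CCAAT was added to the planned one for TGATGNAA. CCAAT on either strand was present in 7 of the 11 windows, against 37.4% of all windows. The 7 were those of Phgdh, Psph, Shmt1, Gldc, Amt and Gcsh and the Psat1 window shown. The other Psat1 window, chr19:15924573-15924872, held none. Counted from the start, the boxes lay at -193 and -23 in Phgdh, at -36, -6 and 23 in Psat1, at -78 and -48 on the other strand in Psph, and at -66 on the other strand in Gldc. These matches are letters in a window and mark no bound site, and they do not separate the genes that were higher from those that were not: Shmt2, Srr and Sfxn1 held none.

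Serine synthesis was compared by genotype 1 enzyme at a time, in the order in which the enzymes act. All levels are CPM after TMM normalization, which can be compared between mice but not between genes as molecule numbers, although a 3' library gives about 1 read position per transcript. Fold changes are on the log2 scale, eIF2B HOM minus wild-type, from the quasi-likelihood test of edgeR, which modelled sex and age beside genotype, with p-values adjusted by Benjamini-Hochberg across all 9192 genes, and a gene was called at an adjusted p under 0.05. Of all genes tested, 2.62% were called higher and 1.7% lower in eIF2B HOM mice, against 5 and 0 of the 9 tested here. The median log2 fold change over all tested genes was -0.0075.

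Phgdh (chr3:98313170-98339990, minus strand, GRCm38), phosphoglycerate dehydrogenase, starts the route by oxidizing 3-phosphoglycerate. It had 18.9 CPM in the lowest, 38.6 in the median and 89.9 in the highest eIF2B HOM mouse, against 9.38, 22.6 and 37.3 CPM in the wild-type mice. The groups overlapped, with 5 of 9 eIF2B HOM mice above the whole wild-type range. This amounted to a log2 fold change of 0.82 (SE 0.14, 95% interval 0.53 to 1.11, edgeR adjusted p = 0.000111), and the exact permutation test over mice gave p = 0.0038 (2-sided). Its highest value, 89.9 CPM, stood well apart from the next eIF2B HOM mouse at 50.1 CPM, and over the fits that leave out 1 mouse the log2 fold change stayed between 0.72 and 0.90. Without sex and age in the model it was 0.84 with an adjusted p of 0.121 (edgeR).

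Psat1 (chr19:15904678-15947337, minus strand), phosphoserine aminotransferase, passes an amino group from glutamate to the product of Phgdh. It had 388, 416 and 551 CPM in the lowest, median and highest eIF2B HOM mouse, against 169, 189 and 226 CPM in the wild-type mice. All 9 eIF2B HOM mice lay above all 12 wild-type mice, which held for 0.424% of the genes tested. Its log2 fold change was 1.14 (SE 0.07, 95% interval 0.99 to 1.29, edgeR adjusted p = 9.89e-16), rank 8 by p among all genes, and the exact permutation test gave 3.4e-06, the smallest p it can give for 9 against 12 mice.

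Psph (chr5:129765558-129787449, minus strand), phosphoserine phosphatase, releases free serine. It had 39.98, 57.2 and 99.4 CPM in the lowest, median and highest eIF2B HOM mouse, against 24.4, 28.2 and 54.0 CPM in the wild-type mice. The overlap was narrow, with 6 of 9 eIF2B HOM mice above the highest wild-type mouse. By edgeR the log2 fold change was 0.95 (SE 0.11, 95% interval 0.73 to 1.17, edgeR adjusted p = 2.47e-08, exact permutation p = 2e-05). The 3 steps were thus 1.77-fold (Phgdh), 2.20-fold (Psat1) and 1.93-fold (Psph) the wild-type level.

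**Figure D1:**
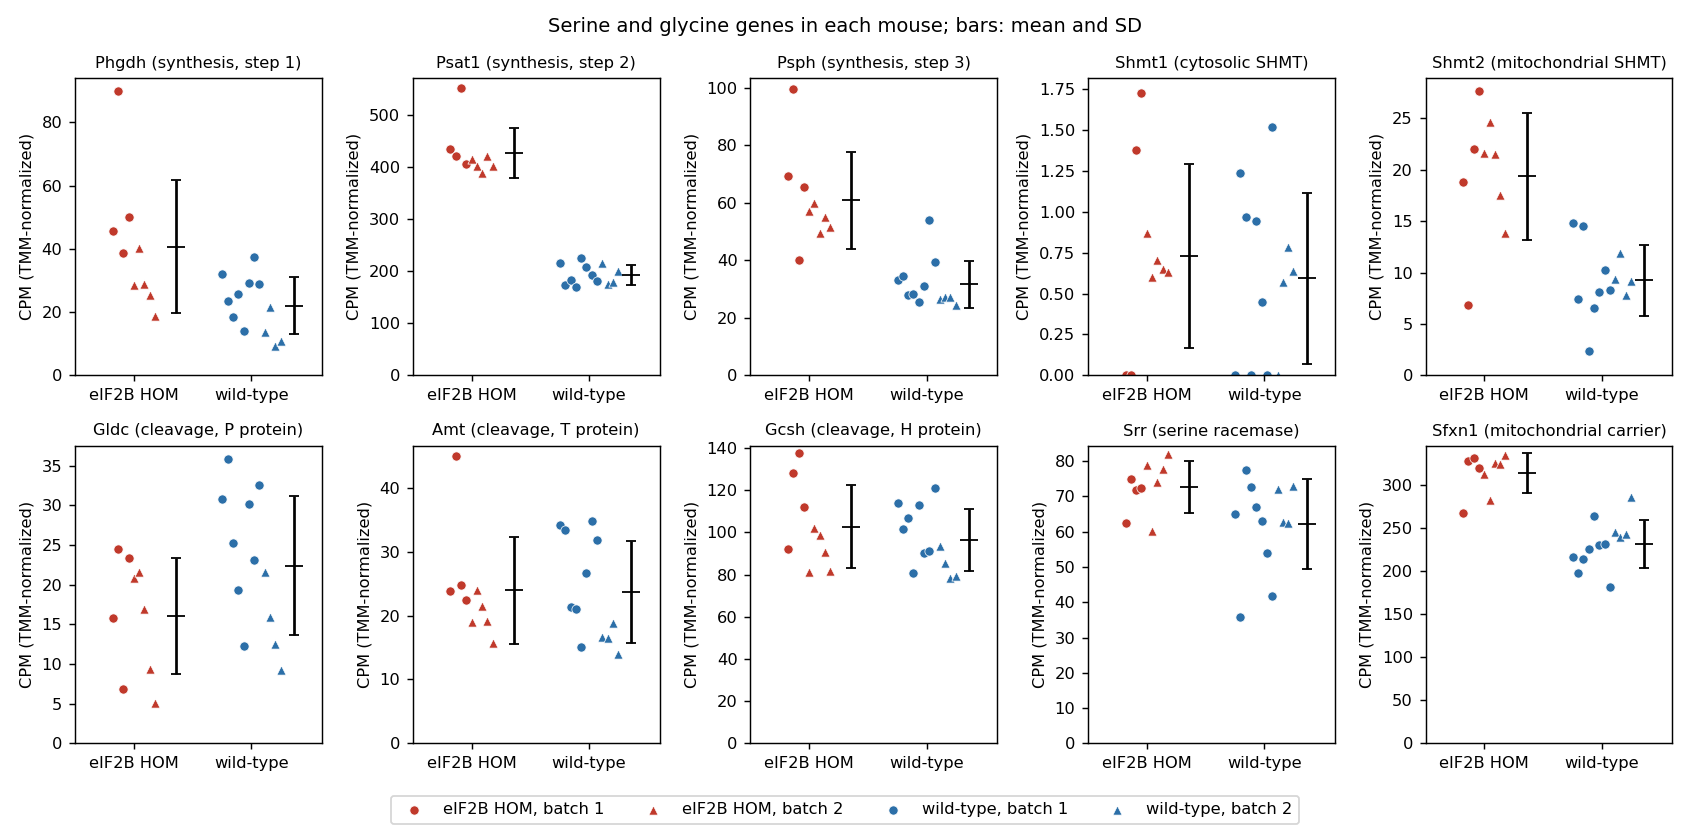
TMM-normalized CPM of each of the 10 genes, 1 panel per gene with its own linear axis starting at 0; each point is 1 mouse (circles batch 1, triangles batch 2), and the black bars give the mean and SD of 9 eIF2B HOM and 12 wild-type mice. The Psat1 groups do not overlap (388 to 551 CPM in eIF2B HOM, 169 to 226 CPM in wild-type mice), while those of Gldc, Amt, Gcsh and Srr overlap over most of their range.

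The serine hydroxymethyltransferases convert serine to glycine, Shmt1 in the cytosol and Shmt2 in mitochondria. Shmt2 (chr10:127517123-127522444, minus strand) had 6.81, 21.5 and 27.6 CPM in the lowest, median and highest eIF2B HOM mouse, against 2.42, 8.77 and 14.8 CPM in the wild-type mice. In the eIF2B HOM group 7 of 9 mice lay above the wild-type range. This amounted to a log2 fold change of 1.10 (SE 0.18, 95% interval 0.73 to 1.48, edgeR adjusted p = 4.8e-05, exact permutation p = 0.00022). The lowest eIF2B HOM value, 6.81 CPM, came from the same mouse that was highest for Phgdh, Psph and Amt (replicate 2, a female of 114 days in batch 1). It rests on 5 counts in a library of 773134.

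By sex, Shmt2 had 21.7 to 27.6 CPM in 4 male eIF2B HOM mice and 6.60 to 10.3 CPM in 5 male wild-type mice. In females the ranges were 6.81 to 21.5 CPM in 5 eIF2B HOM mice and 2.42 to 14.8 CPM in 7 wild-type mice. In fits of 1 sex, Shmt2 was called in males (log2 fold change 1.51, edgeR adjusted p = 0.000317) and not in females (0.81, adjusted p = 0.118), where 0.811% and 1.32% of genes were called higher. The male groups did not overlap and the female groups did, but the test of the difference itself did not pass: the genotype by sex term was 0.71 on the log2 scale (SE 0.37, unadjusted p = 0.0624, edgeR adjusted p = 0.9997).

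Shmt1 (chr11:60788104-60811718, minus strand) was close to the limit of detection and was not tested with edgeR. It had 10 counts in all over the 9 eIF2B HOM mice and 10 over the 12 wild-type mice, 0 to 2 per library, with 0 in 2 eIF2B HOM and 4 wild-type libraries. Its mean level was 0.729 ± 0.563 CPM in eIF2B HOM and 0.592 ± 0.522 CPM in wild-type mice (SD, n = 9 and 12, exact permutation p = 0.57), and a difference between genotypes was not detectable at this depth.

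The glycine cleavage genes were then set against synthesis. None of the 3 was called by edgeR, and limma voomWithQualityWeights and DESeq2 also called 0. Gldc alone was lower at an unadjusted p under 0.05. Gldc (chr19:30098449-30175418, minus strand), the P protein that decarboxylates glycine, had 5.04, 16.9 and 24.5 CPM in the lowest, median and highest eIF2B HOM mouse, against 9.21, 22.4 and 35.9 CPM in the wild-type mice. The ranges overlapped for most mice, but 2 eIF2B HOM mice lay below every wild-type mouse and 5 wild-type mice above every eIF2B HOM mouse. Full separation in this direction, which Gldc did not show, held for 0.0218% of genes. For partial counts, of Gldc or the other genes, no share over all genes was computed. By edgeR, Gldc was not called. Its log2 fold change was -0.42 (SE 0.21, 95% interval -0.84 to -0.0048, unadjusted p = 0.0476, edgeR adjusted p = 0.296, exact permutation p = 0.096).

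Amt (chr9:108296853-108302302, plus strand), the T protein that passes the carbon to folate, had 15.8, 22.4 and 44.9 CPM in the lowest, median and highest eIF2B HOM mouse, against 14.0, 21.1 and 34.7 CPM in the wild-type mice. By edgeR the log2 fold change was 0.03 (SE 0.14, 95% interval -0.25 to 0.31, edgeR adjusted p = 0.946), and it turned to -0.04 without the mouse at 44.9 CPM. Gcsh (chr8:116981810-116993537, minus strand), the lipoic acid-bearing H protein, had 81.5, 98.8 and 138 CPM in the lowest, median and highest eIF2B HOM mouse, against 78.2, 92.6 and 121 CPM in the wild-type mice. This amounted to a log2 fold change of 0.08 (SE 0.09, 95% interval -0.10 to 0.26, edgeR adjusted p = 0.721). The upper bounds for Amt and Gcsh, 0.31 and 0.26, lay below the lower bounds of all 3 synthesis genes, of which the smallest was 0.53 for Phgdh, although the differences between genes were not tested. Dld, the L protein that this system shares with other dehydrogenase complexes, and Lias, which makes the lipoyl group of the H protein, were at -0.09 (SE 0.11, adjusted p = 0.779) and 0.03 (SE 0.09, adjusted p = 0.904) in edgeR.

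Summed within each mouse, the 3 synthesis transcripts gave 466.5, 503 and 630 CPM in the lowest, median and highest eIF2B HOM mouse, against 217, 243 and 284 CPM in the wild-type mice. The 3 cleavage transcripts gave 103, 137 and 198 CPM in eIF2B HOM mice, against 103, 144 and 186 CPM in wild-type mice. Psat1 makes up most of the first sum and Gcsh most of the second, so each sum follows mainly 1 gene. The ratio of synthesis to cleavage was 3.10 to 4.61 (median 3.72) in eIF2B HOM mice and 1.35 to 2.29 (median 1.87) in wild-type mice, and the groups stayed apart in batch 1 and in batch 2.

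The ratio of the first enzyme of each route, Phgdh over Gldc, does not rest on Psat1 or Gcsh. It was 1.38 to 5.60 (median 2.69) in eIF2B HOM mice and 0.633 to 1.61 (median 1.00) in wild-type mice, with 8 of 9 eIF2B HOM mice above the wild-type range. Inside each batch no eIF2B HOM mouse overlapped with the wild-type mice for this ratio. In batch 2 the gap was narrow, with 1.375 in the lowest eIF2B HOM mouse and 1.357 in the highest wild-type mouse. Other ratios were also computed, and the share of gene pairs with such separation was not. Phgdh and Gldc each overlapped between genotypes, so their ratio within a mouse separated the groups further than either level did, as a description without a test.

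**Figure D2:**
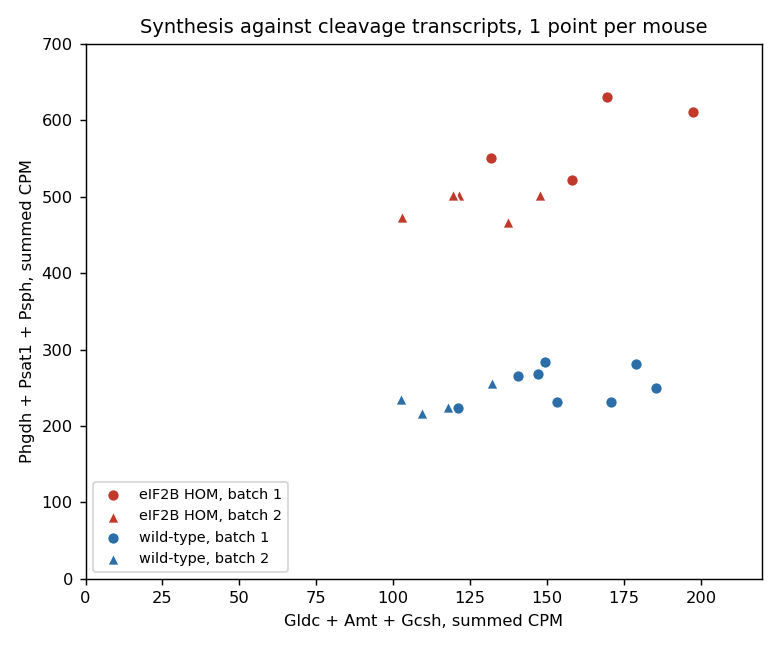
Summed CPM of Phgdh, Psat1 and Psph (vertical axis) against summed CPM of Gldc, Amt and Gcsh (horizontal axis), 1 point per mouse, circles for batch 1 and triangles for batch 2. The eIF2B HOM mice lie at 466.5 to 630 CPM on the vertical axis and the wild-type mice at 217 to 284 CPM, while both groups span about the same horizontal range, 103 to 198 CPM and 103 to 186 CPM.

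Sfxn1 and Srr act on the serine that synthesis provides. Sfxn1 (chr13:54071869-54108342, plus strand), sideroflexin 1, carries serine into mitochondria, where Shmt2 works. It had 268, 324 and 334 CPM in the lowest, median and highest eIF2B HOM mouse, against 182, 231 and 286 CPM in the wild-type mice. In the eIF2B HOM group 7 of 9 mice lay above the highest wild-type mouse. The log2 fold change was 0.44 (SE 0.07, 95% interval 0.30 to 0.59, edgeR adjusted p = 3.97e-05, exact permutation p = 1e-05), or 1.36-fold, the smallest change among the 5 called genes.

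Srr (chr11:74906359-74925948, minus strand), serine racemase, turns L-serine into D-serine, a co-agonist of NMDA receptors. It had 60.1, 74.1 and 81.9 CPM in the lowest, median and highest eIF2B HOM mouse, against 35.9, 64.1 and 77.6 CPM in the wild-type mice. The groups overlapped, with 3 of 9 eIF2B HOM mice above the wild-type range. The log2 fold change was 0.21 (SE 0.10, 95% interval 0.01 to 0.41, unadjusted p = 0.0391, edgeR adjusted p = 0.265, exact permutation p = 0.037), so Srr was not called over all genes. Srr overlaps Tsr1 on the other strand by 2984 bases at its 3' side, and Tsr1 was at 18.3 ± 5.46 CPM in eIF2B HOM and 17.6 ± 5.12 CPM in wild-type mice (SD, n = 9 and 12). The overlap of Shmt2 with Ndufa4l2 is 32 bases, and Ndufa4l2 averaged 0.619 CPM in eIF2B HOM and 0.472 CPM in wild-type mice. The strand setting of the counting is not given in the sources used here, so reads in such overlaps cannot be assigned with certainty.

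The batches were compared because the cleavage genes and Phgdh spread widely within a genotype, a test chosen after their values were seen. With genotype and sex in the model, batch 2 was lower than batch 1 for Phgdh (log2 difference -0.93, SE 0.18, edgeR adjusted p = 0.00055). It was also lower for Amt (-0.63, SE 0.16, adjusted p = 0.00395), Psph (-0.34, SE 0.13, adjusted p = 0.0492) and Gcsh (-0.29, SE 0.09, adjusted p = 0.0186). Gldc was at -0.59 (SE 0.24, edgeR adjusted p = 0.0784) and was not called. Psat1 (-0.06), Shmt2 (0.14), Srr (0.12) and Sfxn1 (0.12) were not called. Over all genes 11.4% were lower in batch 2 and 10.2% higher, against 4 and 0 of the 9 genes here, and batch and age cannot be told apart.

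Phgdh shows the 2 differences side by side. In batch 1 it had 38.6 to 89.9 CPM in eIF2B HOM mice and 14.1 to 37.3 CPM in wild-type mice, and in batch 2 18.9 to 40.3 CPM in eIF2B HOM mice and 9.38 to 21.6 CPM in wild-type mice. The overlap of the pooled groups therefore lay mostly between batches: 4 of 4 eIF2B HOM mice of batch 1 and 4 of 5 of batch 2 were above every wild-type mouse of their own batch. Amt and Srr, which were not called by genotype, also had 4 of 5 in batch 2. The share of all genes with such counts was not computed. For Phgdh the log2 fold change by genotype was 1.07 in batch 1 (edgeR adjusted p = 0.00932) and 0.99 in batch 2 (adjusted p = 0.0137), where 0.832% and 0.961% of all genes were called higher. For Psat1 the batches hardly differed, with 406 to 551 CPM and 388 to 422 CPM in eIF2B HOM mice of batches 1 and 2, and 169 to 226 CPM and 176 to 216 CPM in wild-type mice.

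For Gldc the log2 fold change was -0.54 in batch 1 and -0.08 in batch 2. In batch 1 the medians were 19.6 CPM in eIF2B HOM and 27.7 CPM in wild-type mice. In batch 2 they went the other way, with 16.9 CPM in eIF2B HOM and 14.2 CPM in wild-type mice. Its ranges in batch 1 were 6.89 to 24.5 CPM in eIF2B HOM mice and 12.3 to 35.9 CPM in wild-type mice, and in batch 2 they were 5.04 to 21.6 CPM in eIF2B HOM mice and 9.21 to 21.6 CPM in wild-type mice. The genotype by batch term for Gldc was 0.51 (SE 0.47, edgeR adjusted p = 0.9999), so these batches could not be told apart in their genotype difference. Shmt2 was at 1.14 in batch 1 alone with an adjusted p of 0.12, and at 1.00 in batch 2 with 0.0104 (edgeR). Sfxn1 was at 0.50 in batch 1 with an adjusted p of 0.0181, and at 0.33 in batch 2 with 0.138 (edgeR). No genotype by sex or genotype by batch term of the 9 genes had an unadjusted p under 0.05, and over all 9192 genes edgeR called 0 for either term, with 252 (sex) and 326 (batch) at an unadjusted p under 0.05.

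**Figure D3:**
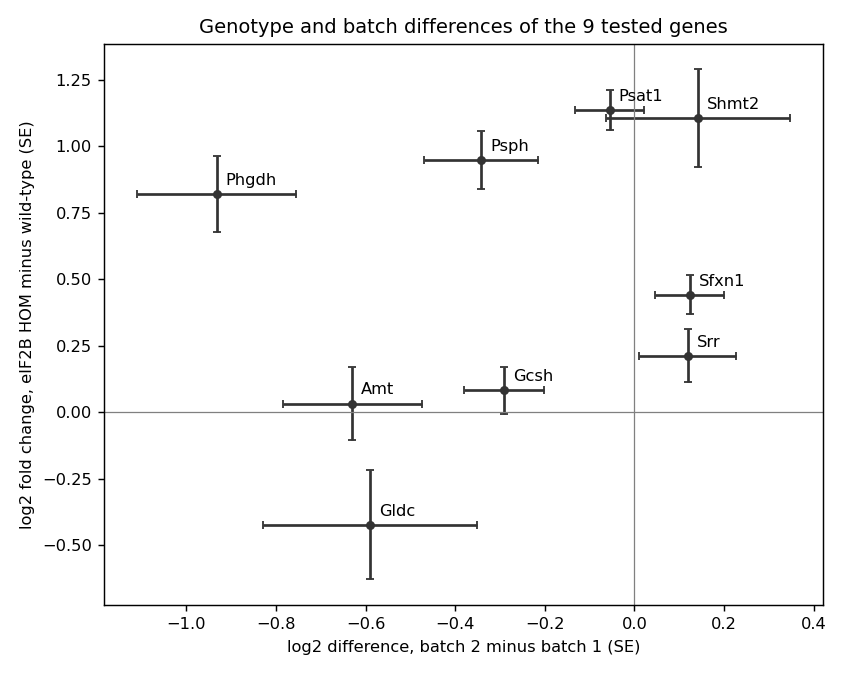
Log2 fold change by genotype (eIF2B HOM minus wild-type, vertical axis) against log2 difference between batches (batch 2 minus batch 1, horizontal axis) for the 9 tested genes, with SE bars from edgeR. Phgdh and Psph were called on both axes, Psat1, Shmt2 and Sfxn1 on the genotype axis, and Amt and Gcsh on the batch axis.

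In the wider lists of the pathway, genes that bring serine and glycine across membranes differed most often. Of 7 carriers tested, Sfxn1 among them, 5 were higher and 0 lower, against 2.62% and 1.7% of all genes. Their median log2 fold change was 0.44, the value of Sfxn1 itself. Slc1a5, an exchanger of small neutral amino acids, averaged 14.7 ± 2.85 CPM in eIF2B HOM and 1.83 ± 1.07 CPM in wild-type mice (log2 fold change 2.88, SE 0.23, edgeR adjusted p = 1.36e-12). Slc6a9, the glycine transporter GlyT1 of glia, averaged 42.1 ± 8.07 CPM in eIF2B HOM and 19.0 ± 7.31 CPM in wild-type mice (1.12, SE 0.14, adjusted p = 9.93e-08). Slc1a4, which carries serine and alanine, was at 0.80 (SE 0.12, edgeR adjusted p = 7.54e-06), and the remaining called carriers were Sfxn1 and Slc38a2. Slc7a10, an exchanger of D-serine and glycine named after its values were seen, was at -0.65 (SE 0.21, edgeR adjusted p = 0.0758) and was not called.

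Among enzymes of a further list that use serine or glycine, Srr included, 8 of 16 were tested. Of these 1 was higher, 1 was lower and the median was 0.09. Cbs, which joins serine and homocysteine to cystathionine, averaged 38.0 ± 6.43 CPM in eIF2B HOM and 24.9 ± 6.32 CPM in wild-type mice (log2 fold change 0.64, SE 0.12, edgeR adjusted p = 0.000402). Gatm, which uses glycine in the first step of creatine synthesis, averaged 63.1 ± 28.8 CPM in eIF2B HOM and 98.3 ± 46.2 CPM in wild-type mice (-0.61, SE 0.16, edgeR adjusted p = 0.0271). The summed oligodendrocyte markers moved the same way as Gatm, with 4030 to 6960 CPM (median 4470) in eIF2B HOM and 4497 to 11104 CPM (median 6675) in wild-type mice, and 2 of 7 called lower, and their part in the Gatm result was not tested.

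Folate enzymes take up the carbon that SHMT and glycine cleavage release, and of 9 given here 4 were tested, with 2 higher and 0 lower. The 2 were Mthfd2 (log2 fold change 2.35, SE 0.14, edgeR adjusted p = 2.49e-17) and Aldh1l2 (3.07, SE 0.22, adjusted p = 1.91e-14). Mthfd2l, a relative of Mthfd2, was at -0.47 (edgeR adjusted p = 0.158), and Aldh1l1, a relative of Aldh1l2, at 0.24 (adjusted p = 0.310). Upstream of Phgdh, Gapdh was at -0.12 and Bpgm, which makes 2,3-bisphosphoglycerate, at -0.20 (edgeR adjusted p = 0.761 and 0.240). Pgk1 and Pgam1 had too few counts to be tested, and near-identical copies of Gapdh and Pgk1 elsewhere in the genome make counts of these genes uncertain. The lists were compiled with earlier results of these mice known, so these counts are descriptions.

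**Figure D4:**
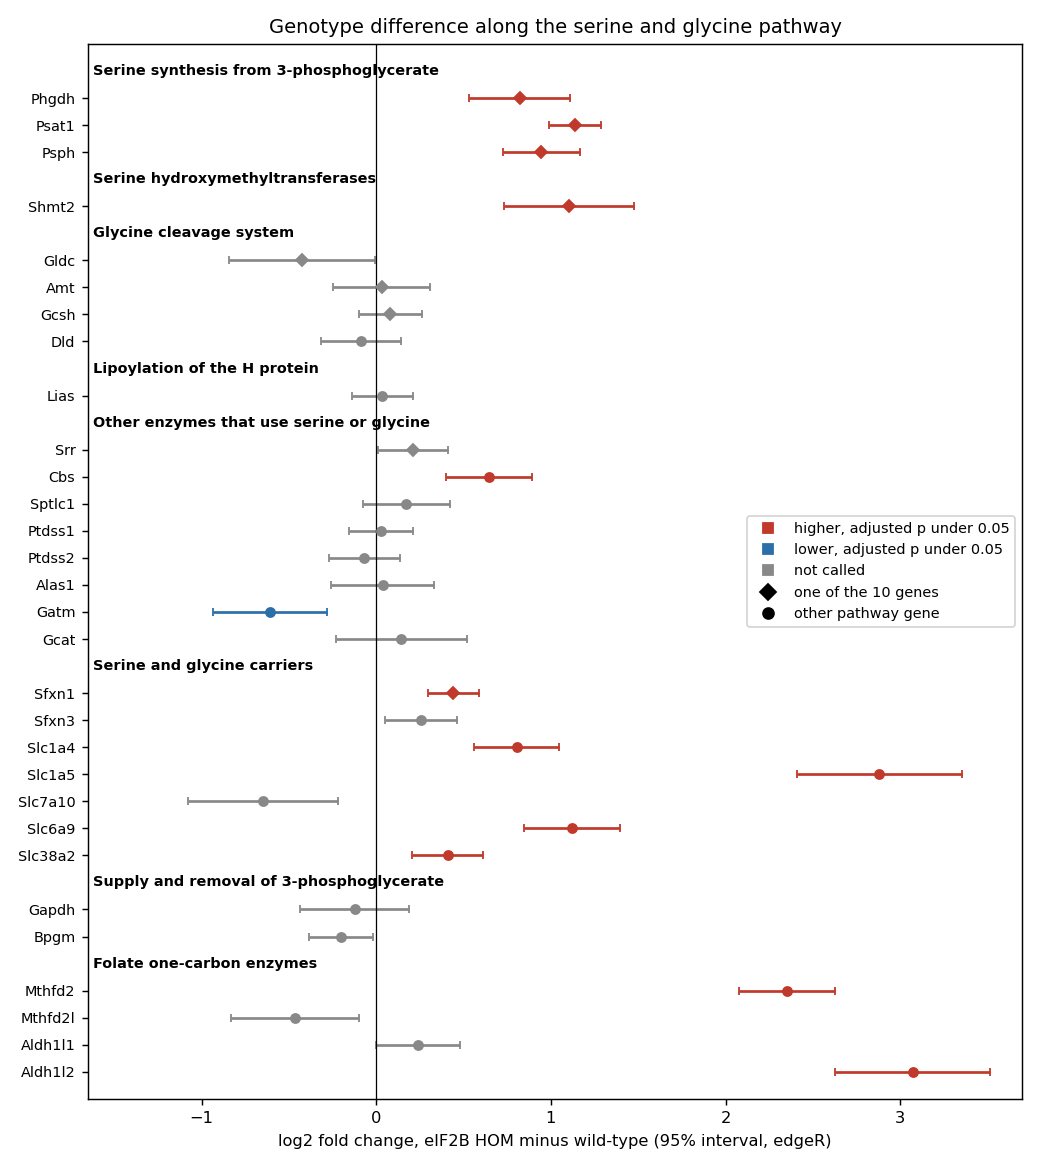
Log2 fold change, eIF2B HOM minus wild-type, with its 95% interval from edgeR for the tested genes of each step of serine and glycine metabolism; diamonds are the genes described here, circles the other pathway genes, and color marks an adjusted p under 0.05. The intervals of the 3 synthesis genes and Shmt2 lie between 0.53 and 1.48, and those of Amt and Gcsh include 0.

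The tested genes whose levels were most alike Psat1 and Gldc from mouse to mouse were also listed. Likeness was measured as Pearson r of log2 CPM over the 21 mice after the mean of each genotype within each batch had been subtracted, as a description of libraries that share depth and dissection. For Psat1 the most alike tested genes were Hmgn3 (0.81), Dhrs4 (0.77), Smc6 (0.77), Eprs (0.77) and Mpv17l2 (0.77). For Gldc they were S1pr1 (0.94), Qk (0.92), Cst3 (0.91), Sdc4 (0.90) and Zfand3 (0.90), all closer than any gene was to Psat1. On the same measure Gldc was at 0.61 with Amt and 0.67 with Phgdh, and Phgdh at 0.75 with Amt and 0.69 with Psph, while Psat1 was at -0.29 with Phgdh and -0.43 with Psph. For cell types, these values of log2 CPM were averaged over the markers. The neuron marker mean was at -0.75 with Gldc, -0.75 with Amt and -0.69 with Phgdh, but 0.16 with Psat1. The astrocyte marker mean was at 0.59 with Gldc. The part of cell composition in the levels of these genes was not tested. Among the eIF2B HOM mice, replicate 2 stood apart as the highest for Phgdh, Psph and Amt, and replicate 3 for Psat1. The r values were not computed without these mice. All Psat1 counts, 140 to 1300 per library, carry only 2 significant digits, and the part of this rounding in its r values was not tested.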

How the data were processed

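Brain RNA of 21 mice was read by QuantSeq 3' sequencing with unique molecular identifiers. Per the labels and the study's methods, the authors trimmed reads, aligned them with STAR to GRCm38.p6 and counted genes with featureCounts (Subread 1.6.2). Raw counts for 22058 genes (protein-coding) were deposited by the authors, and in these 100% of counts of 100 or more carry only 2 significant digits, and a CPM table, which was deposited by the authors and not used here.

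From the counts, edgeR 4.0.16 in R 4.3.3 gave log2 fold changes, SE and p-values after filterByExpr on genotype and TMM scaling, in a robust quasi-likelihood fit of genotype, sex and age, with a call at an adjusted p under 0.05 by Benjamini-Hochberg across the 9192 genes kept. CPM per mouse used the TMM factors and the totals of the filtered genes, and log2 CPM for likeness a prior count of 2. Exact permutation tests were 2-sided over all splits into 9 and 12 mice. Samples were grouped by the genotype label. P-values measure the spread between these mice.

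The study's own limma voomWithQualityWeights model, DESeq2 1.42.0, other normalizations, filters and covariates, each batch and sex alone, and leaving out each mouse were run as alternatives (limma 3.58.1). The study's methods set a minimum of total counts per sample, and none was set here. The fit without 4 libraries with olfactory bulb genes over 50 CPM was added after seeing the data, as was the batch comparison. Named are all 10 genes, up to 4 genes with the smallest p of each pathway list, the 5 genes most alike Psat1 and Gldc, and those said to be named after their values were seen. 1 gene of the folate list is not reported here. The members and lists were chosen with earlier results of these data known. The edgeR fit was tested on simulated counts, and the other steps were not. No 2 libraries had identical counts (0 pairs). Promoter sequences are from RefSeq (GRCm38.p6), and gene positions and overlaps from GENCODE on GRCm38. At these depths a gene near 1 CPM rests on 0 to a few counts per library, which limits Shmt1 most.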

Additional observations from a re-analysis of the deposited data

Results flagged for a closer look

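Among the 10 genes, the highest of the 9 eIF2B HOM mice stood apart from the rest for 4 genes, measured as its gap to the next mouse over the whole range of the group. Chance alone flags about 1 in 20 groups in this way. For Phgdh the gap was 0.561 of the range (89.9 CPM against 50.1 CPM in the next mouse), for Psph 0.506 (99.4 against 69.4 CPM) and for Amt 0.690 (44.9 against 24.8 CPM). These 3 values belong to a single mouse, replicate 2, a female of 114 days in batch 1. They rest on 66 (Phgdh), 73 (Psph) and 33 (Amt) counts in a library of 773134. For Psat1 the gap was 0.707 (551 against 436 CPM), in another mouse, replicate 3, a male of 105 days in batch 1. Its library held 727018 counts. Both mice had smaller libraries than any other mouse, and the part of depth was not tested. Without either mouse the edgeR calls for Phgdh, Psat1 and Psph stood, and the number of these genes called higher stayed at 5 whichever mouse was left out.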

How the results depend on the processing

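Of 142 values of the tested genes under alternatives other than leaving out a mouse, 135 kept their direction and their side of the threshold, 6 lost the call and 1 reversed. The number called higher was 3 in males alone and 4 without covariates, in batch 1, in batch 2, in females and under a filter of 10 counts in every library (where Shmt2 was not tested). It was 5 under the remaining alternatives and whichever mouse was left out. The number called lower was 0 throughout. The calls lost were Phgdh without covariates (0.84) and in males (0.75), Shmt2 in batch 1 (1.14) and in females (0.81), and Sfxn1 in batch 2 (0.33) and in males (0.44). Those fits but the first hold fewer mice. Amt was -0.0895 in males alone, and ran from -0.0381 to 0.0865 with a mouse left out.

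Over all genes, 241 were higher, against 151 without covariates, 75 in batch 1, 95 in batch 2, 123 in females, 74 in males and 183 to 280 with 1 mouse left out. There were 156 lower, against 253 with limma voom, 46 without covariates, 55 with batch in place of age, 80 with age and batch, 12 in batch 1, 22 in batch 2, 31 in females, 27 in males, 62 without the 4 olfactory bulb libraries and 86 to 270 with 1 mouse left out. The lowest of these followed from leaving out eIF2B HOM replicate 8 and the highest wild-type replicate 4. A filter of 10 counts in every library gave no value for Gldc and Shmt2. The causes were not tested. No paired analysis was possible because the labels name no litter and give no shared replicate numbers.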
